A study of Homo sapiens with 11 samples.

Results

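The genes described here are 5 members of the apolipoprotein L (APOL) family, APOL1, APOL2, APOL3, APOL4 and APOL6. They were chosen by symbol because APOL4 RNA had been seen to fall in nickel-treated RT4 cells, so that its RT4 change is the reason for the choice and not a result, and its 4 relatives were taken for comparison. The 5 genes are listed among 28252 genes in the RT4 RNA-Seq data and among 26237 promoters in the BEAS-2B H3K4me3 ChIP-Seq data.

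RT4 is a human bladder cancer line and BEAS-2B is an immortalized line of human bronchial epithelium. The study asked which changes caused by nickel persist once the metal is gone. Untreated cells (UT) received no nickel, and nickel-exposed cells (Ni-E) were grown with 100 μM NiCl2 for 6 weeks. RT4 washed-out cells (Ni-W) had the same exposure and then 2 weeks without nickel, and each RT4 condition has 2 libraries. BEAS-2B Ni-W cells came from 1 population grown out of a single colony, kept without nickel for more than 6 months as the study describes (the sample labels also name 2 weeks), and each BEAS-2B condition has 1 H3K4me3 library. The BEAS-2B Ni-W library therefore stands for 1 clone-derived population, and a clonal difference and an effect of nickel cannot be told apart in it.

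APOL proteins carry amphipathic helices that associate with membranes. APOL1 is the secreted member, circulates on high-density lipoprotein particles, is the trypanosome lytic factor of human serum, and is known for kidney disease variants. The other members lack its secretion signal and act inside cells, where APOL3 has been linked to Golgi membranes and to killing of cytosolic bacteria, and several family genes, APOL1, APOL2, APOL3 and APOL6 among them, are known to be induced by interferons and other inflammatory cytokines. APOL6 carries a BH3-like motif and has been linked to cell death. H3K4me3, the trimethylated form of lysine 4 of histone H3, marks the promoters of active and poised genes.

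All 5 genes lie on chromosome 22 (GENCODE version 44, GRCh38). APOL1 is at chr22:36253071-36267530 on the plus strand, APOL2 at chr22:36226209-36239954 on the minus strand, APOL4 at chr22:36189124-36204840 on the minus strand and APOL3 at chr22:36140329-36166177 on the minus strand. These 4 genes fill a cluster of 127.2 kb in which APOL4 stands between APOL3 and APOL2. APOL6, at chr22:35648446-35668404 on the plus strand, begins outside the cluster, with 471.9 kb between its end and the cluster. In this annotation none of the 5 genes overlaps another gene, and no other gene starts within 4 kb of their starts. The gene models and promoter starts behind the deposited values were not compared with it. Stretches of 50 bases shared with other APOL transcripts made up 14 of 3675 in APOL1, 5 of 3591 in APOL2 and 9 of 6530 in APOL3, and none was found for APOL4 or APOL6. The estimated counts of the 5 genes were whole numbers in all 6 libraries. So were those of 97.87% to 97.99% of all genes, depending on the library.

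The RT4 libraries held 17075833 to 27736454 estimated counts. In each condition the replicate 1 library, at no more than 18280556, was shallower than the replicate 2 library, at no less than 25721265. All 6 epithelial markers and 9 of 10 urothelial markers were at 1 TPM (a level scaled to transcript length and library depth) or more in every RT4 library. The exception, KRT20, a keratin of umbrella cells, was at 11.07 and 11.27 TPM in UT cells, 0.25 and 0.11 in Ni-E cells and 1.59 and 1.37 in Ni-W cells. The summed urothelial level was 1480 to 1553 TPM in UT, 1158 to 1165 in Ni-E and 1526 to 1573 in Ni-W libraries, and its parts did not move alike. UPK2, a uroplakin of the bladder lining, was at 284.61 and 402.37 TPM in UT, 96.18 and 127.77 in Ni-E and 222.0 and 328.23 in Ni-W cells, and UPK1A at 70.57 and 92.53, 16.1 and 18.47, and 39.58 and 44.42 TPM. UPK3B was at 293.09 and 312.92 TPM in UT, 390.96 and 405.63 in Ni-E and 368.21 and 420.49 in Ni-W cells. Of the markers of other cell types, 4 of 5 endothelial, 5 of 6 leukocyte and 5 of 6 fibroblast markers were under 1 TPM in every library, with PTPRC at 0.04 or less and CD3E and DCN at 0. CD68, a lysosomal glycoprotein, was the exception among leukocyte markers, with 7.30 to 7.33 TPM in UT and 10.55 to 13.43 TPM in nickel-treated and washed-out cells. COL3A1 was the exception among fibroblast markers, with 0.26 to 0.84 TPM in UT, 2.18 to 4.13 in Ni-E and 1.48 to 4.55 in Ni-W cells. The part of these markers in the APOL values was not tested. In bulk RNA, fewer cells with a transcript and less of it per cell cannot be told apart.

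APOL1 was the most abundant of the 5 transcripts in RT4 cells. Over the 6 libraries the mean level was 577 TPM for APOL1, 136 TPM for APOL2, 19.2 TPM for APOL6, 10.4 TPM for APOL3 and 2.75 TPM for APOL4. Each gene was above the next in this order in 6 of 6 libraries. The ranges of APOL6 (9.27 to 36.96 TPM) and APOL3 (6.67 to 17.68 TPM) overlapped over the 3 conditions, as did those of APOL3 and APOL4 (0.74 to 6.84 TPM). Within a condition, APOL6 and APOL3 overlapped in Ni-W cells and APOL3 and APOL4 in UT cells, and in the other conditions these neighbours in the order stood apart. APOL1 lay above 99.14% and APOL4 above 59.20% of all listed genes in mean TPM.

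**Figure D1:**
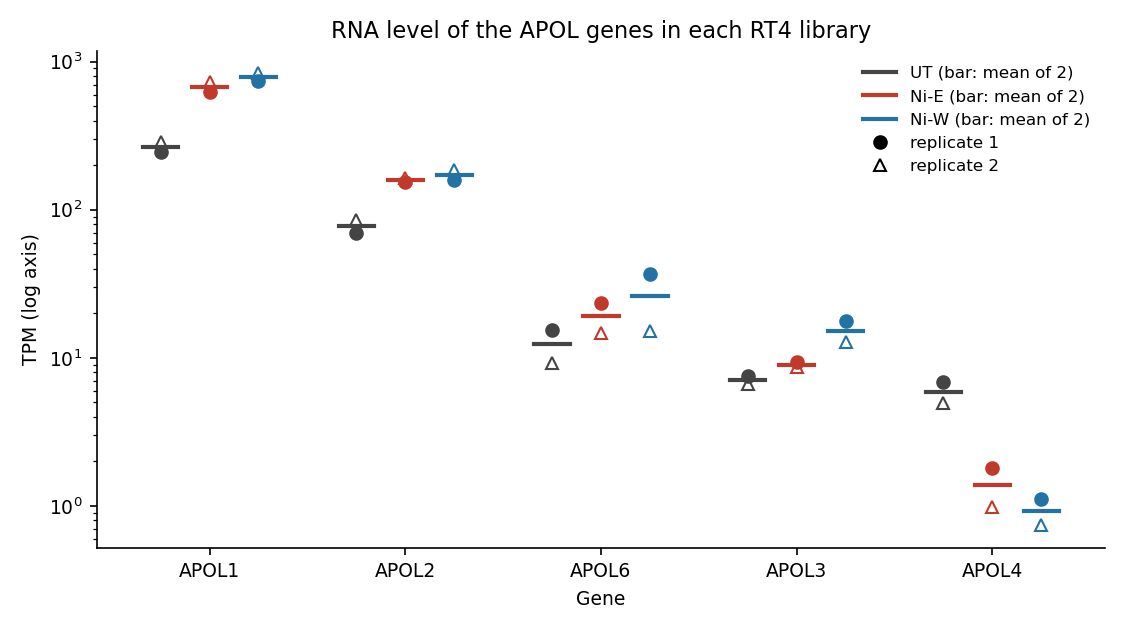
TPM of each APOL gene in the 6 RT4 libraries on a log axis, with genes in order of their mean level. Points are single libraries (filled circles replicate 1, open triangles replicate 2) and bars are the mean of 2 libraries. APOL4 is the gene whose nickel-treated and washed-out libraries, 0.74 to 1.8 TPM, lie below its UT libraries, 4.99 and 6.84 TPM.

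APOL4 was the single member with less RNA after nickel. It stood at 6.84 and 4.99 TPM in the UT libraries, 1.8 and 0.98 TPM in the Ni-E libraries, and 1.12 and 0.74 TPM in the Ni-W libraries. Both UT libraries were above all 4 others, and the Ni-E and Ni-W libraries overlapped on this scale. The reads behind these levels were few, with estimated counts of 217 and 262 in UT, 56 and 52 in Ni-E, and 30 and 40 in Ni-W cells.

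The values of APOL1 ran the other way. Its level was 245.89 and 288.87 TPM in UT, 625.05 and 728.06 TPM in Ni-E, and 742.13 and 834.08 TPM in Ni-W cells. No UT library reached the range of the other 4, and the Ni-W libraries were both above the Ni-E libraries in TPM. The group means were 267 ± 30.4 TPM in UT, 677 ± 72.8 TPM in Ni-E and 788 ± 65.0 TPM in Ni-W cells (SD, n = 2).

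APOL2, the closest neighbour of APOL1 with 13.1 kb between their starts, had the same order of conditions. It was at 70.02 and 85.74 TPM in UT, 153.38 and 163.56 TPM in Ni-E, and 159.15 and 185.91 TPM in Ni-W cells. Its Ni-E and Ni-W libraries overlapped, and both lay above UT.

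APOL3 had its highest values after the washout. It was at 7.52 and 6.67 TPM in UT, 9.32 and 8.68 TPM in Ni-E, and 17.68 and 12.78 TPM in Ni-W cells. The 3 groups did not overlap. APOL6 was at 15.41 and 9.27 TPM in UT, 23.50 and 14.63 TPM in Ni-E, and 36.96 and 15.17 TPM in Ni-W cells. Its replicate 1 library was the higher one in every condition, and the groups overlapped in TPM.

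The 5 levels summed to 346 and 396 TPM in UT libraries, 813 and 916 TPM in Ni-E and 957 and 1049 TPM in Ni-W libraries. Of that total APOL4 supplied 1.98% and 1.26% in UT, 0.221% and 0.107% in Ni-E, and 0.117% and 0.0706% in Ni-W libraries. APOL1 supplied 71.1% and 73.0% in UT, 76.9% and 79.5% in Ni-E, and 77.5% and 79.5% in Ni-W libraries. There were 35.9 and 57.9 APOL1 transcripts for each APOL4 transcript in UT cells, and 663 and 1127 in Ni-W cells.

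Fold changes were taken from 1 edgeR model of all 6 libraries, where a gene was called at a fold of at least 1.5 and a Benjamini-Hochberg adjusted p below 0.05 over the 14502 genes tested. All 5 members passed the filter on low counts. Because libraries with the same replicate number deviated together in every condition, calls are also given from the same model with the replicate number as a block. The p-values of this model measure the spread between these samples, which the study describes as 2 biological replicates. Since the genes were chosen with these RT4 comparisons in view, their p-values are not printed. Their fold changes and calls, and counts of them under a threshold, are descriptions and not independent tests. The calls of APOL4 restate the fall for which it was chosen.

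In Ni-E against UT cells, APOL4 had a log2 fold change of -2.15 ± 0.32 (SE), a 4.43-fold lower level. Its log2 ratio was -1.92 between the replicate 1 libraries and -2.44 between the replicate 2 libraries. The fold changes of the others were 1.32 ± 0.29 for APOL1, 0.99 ± 0.29 for APOL2, 0.63 ± 0.36 for APOL6 and 0.32 ± 0.20 for APOL3, again on the log2 scale. For APOL1 this is 2.49-fold and for APOL3 1.25-fold. The ratios within each replicate number had the sign of the pooled value for all 5 genes, at 1.38 and 1.27 for APOL1, 1.16 and 0.87 for APOL2, 0.65 and 0.60 for APOL6, and 0.33 and 0.31 for APOL3.

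In that comparison 0 members were called higher and 1, APOL4, was called lower, where 2.17% of all genes tested were called, 1.45% higher and 0.710% lower. Of the 4 others 2 were at an unadjusted p below 0.05 in edgeR, beside 1773 of the 14502 genes tested in either direction. DESeq2 and limma on log2(TPM + 1) each called 1 of the 4, APOL1, higher, beside 2.37% and 0.814% of all genes. With the replicate block 3 were called higher, APOL1 (1.33), APOL2 (1.01) and APOL6 (0.62), and APOL4 was again called lower (-2.18), beside 7.64% of all genes higher and 5.00% lower. On TMM-scaled CPM (estimated counts scaled to library size) the groups did not overlap for any of the 5 genes, with 4 members higher and 1 lower in Ni-E. The same was true of 20.3% of all genes in the higher and 19.3% in the lower direction. The call of APOL4 was kept in 2 of 6 fits with a library left out, those without Ni-W replicate 1 (-2.16) or Ni-W replicate 2 (-2.15). It was lost without UT replicate 1 (-2.05), UT replicate 2 (-2.24), Ni-E replicate 1 (-2.53) or Ni-E replicate 2 (-1.83), and its log2 fold change stayed between -2.53 and -1.83.

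After the washout all 5 genes were farther from UT than during exposure in the value of the fold change, although none of the changes between Ni-W and Ni-E was called without the replicate block. In Ni-W against UT cells APOL4 had a log2 fold change of -2.75 ± 0.33, a 6.71-fold lower level, with ratios of -2.76 and -2.74 within the replicate numbers. APOL1 was at 1.51 ± 0.29, with ratios of 1.48 and 1.54, APOL2 at 1.10 ± 0.29, with 1.06 and 1.12, and APOL3 at 1.04 ± 0.20, with 1.14 and 0.95. APOL6 was at 0.99 ± 0.37, and here the replicates were farther apart, at 1.15 and 0.72.

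Of the 5 members, 0 were called higher and 1, APOL4, was called lower in Ni-W against UT cells, beside 0.600% of all genes tested called in either direction, 0.503% higher and 0.0965% lower. All 4 others were at an unadjusted p below 0.05 in edgeR, beside 1323 of the 14502 genes tested in either direction. DESeq2 called 3 of the 4 higher (APOL1, APOL2 and APOL3) and limma 1 (APOL1), beside 1.74% and 0.472% of all genes. With the replicate block all 4 were called higher, APOL1 at 1.51, APOL2 at 1.09, APOL3 at 1.04 and APOL6 at 0.94, and APOL4 was called lower at -2.74, beside 5.79% of all genes higher and 2.78% lower. The groups did not overlap for 4 members in the higher and 1 in the lower direction, beside 15.1% and 14.1% of all genes. Leaving out a library kept the APOL4 value between -2.83 and -2.65 but ended its call in 6 of 6 fits, at -2.65 without UT replicate 1, -2.83 without UT replicate 2, -2.75 without either Ni-E replicate, -2.82 without Ni-W replicate 1 and -2.67 without Ni-W replicate 2. Over all genes those fits called 0 to 38.

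**Figure D2:**
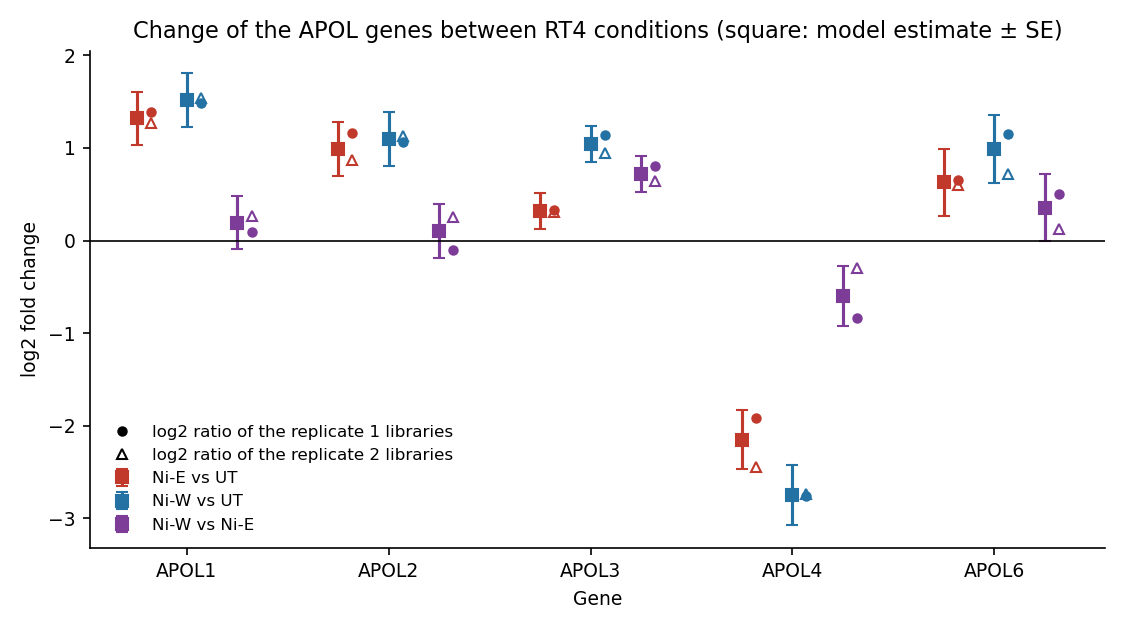
Log2 fold change of each APOL gene in 3 comparisons of RT4 conditions. Squares are the model estimates with their standard errors, and circles and triangles are the log2 ratios of the libraries with the same replicate number. APOL4 sits at -2.15 and -2.75 against UT while the other 4 genes sit between 0.32 and 1.51.

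Ni-W against Ni-E cells compares the RNA 2 weeks after nickel was removed with the RNA during exposure. The log2 fold changes were 0.20 ± 0.29 for APOL1, 0.11 ± 0.29 for APOL2, 0.72 ± 0.19 for APOL3, -0.60 ± 0.32 for APOL4 and 0.36 ± 0.36 for APOL6. None of the 5 was called and neither was any other gene (0% of the genes tested by edgeR, with 808 at an unadjusted p below 0.05, and 139 genes called by DESeq2). With the replicate block 1 member, APOL3, was called higher (0.72) and 0 lower, beside 2.72% of all genes higher and 1.80% lower. On CPM APOL3 was higher in both Ni-W libraries than in both Ni-E libraries and APOL4 lower, and the other 3 genes overlapped. Groups without overlap were found for 12.7% of all genes in each direction. For APOL1, APOL2 and APOL6 the sign of this small difference turned when 1 library was left out, with ranges of -0.11 to 0.46, -0.23 to 0.39 and -0.14 to 0.74.

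APOL1 and APOL2 had the closest profiles of any pair of members over the 6 libraries, with a Euclidean distance of 0.447 between their centred log2 CPM. APOL4 lay 4.59 from APOL1, 4.17 from APOL2 and 3.82 from both APOL3 and APOL6. These are descriptions over 6 libraries that fall into 3 conditions. The genes whose profiles lay nearest to APOL4 among all genes tested were DCLK2, a doublecortin-like kinase, at a distance of 0.526, NOS3, the endothelial nitric oxide synthase, at 0.600, and the antisense RNA SOX21-AS1 at 0.782. NOS3 was at 1.67 and 2.16 TPM in UT, 0.46 and 0.30 TPM in Ni-E and 0.31 and 0.20 TPM in Ni-W cells. In Ni-E against UT its log2 fold change was -2.33 ± 0.38 (edgeR, adjusted p = 0.046), a call that was lost in each of the 6 fits that left out a library, with values from -2.61 to -1.98. DCLK2 and SOX21-AS1 did not pass the test, at -2.50 ± 0.54 (adjusted p = 0.1) and -2.31 ± 0.52 (adjusted p = 0.107), and both passed it with the replicate block (-2.55 and -2.32). Since the distance was taken over the libraries of the same comparisons, likeness and direction are not independent. The other 4 members ranked between 13432 and 14112 in distance from APOL4.

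Genes that interferons induce held more calls than any other list described here, and theirs was also the longest list. The hypoxia-inducible factor targets and metallothioneins described below, with 13 genes tested, had 4 called in Ni-E against UT, and 11 with the replicate block. Of 52 interferon-induced genes 49 were tested, and 16 were called higher and 0 lower in Ni-E against UT, beside 1.45% of all genes called higher. Their median log2 fold change was 0.80 beside -0.01 for all genes tested. In Ni-W against UT 18 were called higher and 0 lower, beside 0.503% of all genes called higher. Their median was 1.77 beside 0.00, and 49 of 49 values were above 0. DESeq2 called 22 and 40 of them higher in the 2 comparisons, beside 2.37% and 1.74% of all genes. Limma called 10 and 14, beside 0.814% and 0.472%, and edgeR with the replicate block 32 and 42, beside 7.64% and 5.79%. These shares of genes called higher apply to the lists below as well. IFI44L, an interferon-inducible cytoplasmic protein gene, had log2 fold changes of 5.73 ± 0.34 in Ni-E (edgeR, adjusted p = 0.00773) and 6.89 ± 0.35 in Ni-W cells (adjusted p = 0.0131). IFI27, a mitochondrial interferon-induced protein, was at 5.87 ± 0.46 (adjusted p = 0.00928) and 6.29 ± 0.47 (adjusted p = 0.0131). IFI6 rose by 4.05 ± 0.32 and 4.74 ± 0.33, and IFIT1, which binds viral RNA, by 3.75 ± 0.28 and 4.99 ± 0.30 on the same scale. The counts of calls changed with the libraries used. In Ni-E against UT the 16 became 0 without either Ni-E library, 7 without UT replicate 1 and 3 without UT replicate 2, and stayed at 16 without either Ni-W library. In Ni-W against UT the 18 became 1 without UT replicate 1 and 0 without UT replicate 2 or either Ni-E library, and 12 and 13 without Ni-W replicate 1 and 2. There were 0 with only UT and Ni-W in the model.

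Beside this list, APOL1 was exceeded by 20 of the 49 interferon-induced genes in Ni-E against UT and by 31 of 49 in Ni-W against UT. APOL2 was exceeded by 24 and 38, APOL6 by 31 and 40, and APOL3 by 40 and 38. APOL4 lay below every one of the 49 genes in both comparisons, whose lowest values were -0.47 and 0.13. As APOL4 was chosen for its fall in RT4 cells, this place follows from the choice and is not a result.

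**Figure D3:**
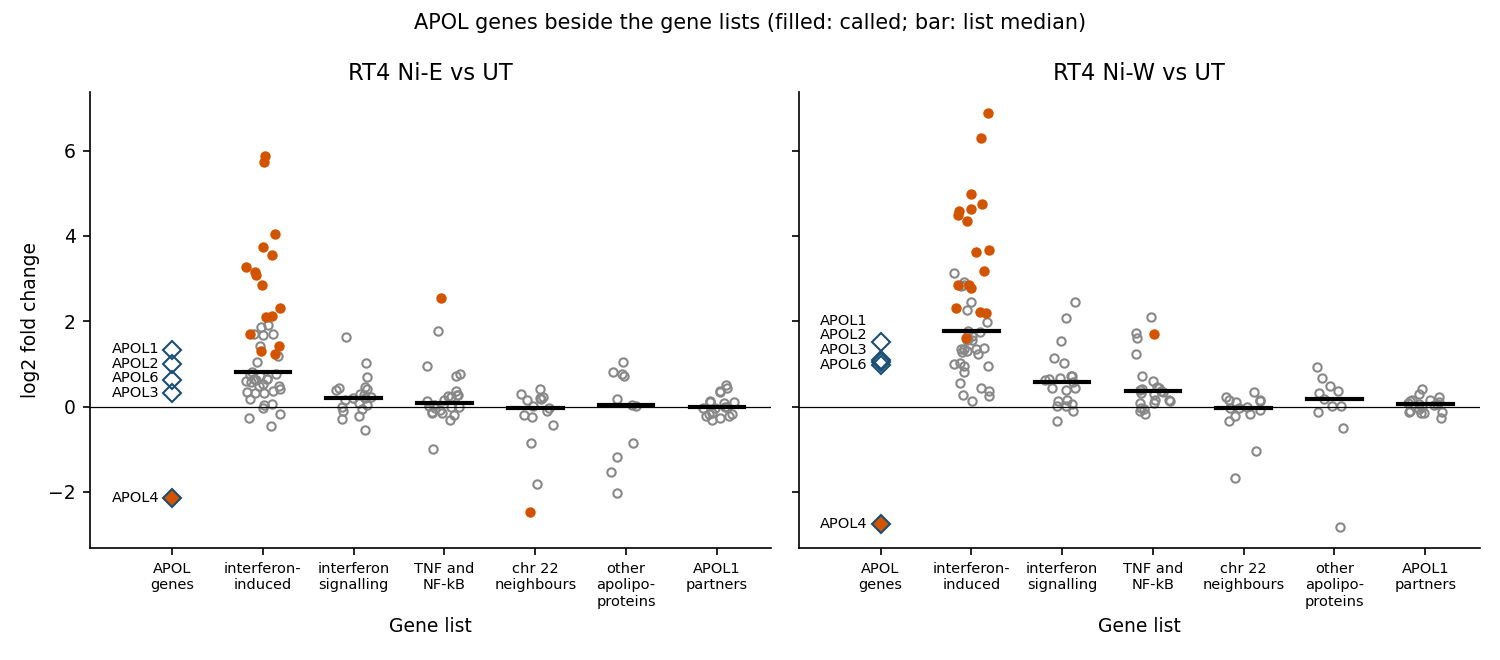
Log2 fold change against UT of the 5 APOL genes (diamonds) and of the tested genes of 6 lists (circles) in Ni-E (left) and Ni-W RT4 cells (right). Filled symbols passed the call threshold and bars are list medians. The interferon-induced list has a median of 0.80 on the left and 1.77 on the right. APOL4, which was chosen for its fall, lies under all of its genes.

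The receptors and signalling proteins of the interferon pathway had 0 of 21 genes called in either direction in both comparisons, with median log2 fold changes of 0.21 in Ni-E and 0.57 in Ni-W cells, where 15 and 19 of the 21 values were above 0. At an unadjusted p below 0.05 edgeR gave 2 and 8 of them as higher, DESeq2 called 1 and 4, limma 1 and 1, and edgeR with the replicate block 3 and 7. IRF9, the DNA-binding part of the complex that type I interferon activates, was at 25.16 and 35.06 TPM in UT, 89.82 and 100.61 TPM in Ni-E and 157.18 and 184.74 TPM in Ni-W cells. Its log2 fold changes were 1.62 ± 0.34 (edgeR, adjusted p = 0.0939) and 2.45 ± 0.35 (adjusted p = 0.0604), it was called in both with the replicate block (1.66 and 2.46), and it was singled out after its values were seen.

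Of 24 tested TNF and NF-kB genes, 1 was called higher in each comparison against UT and 0 lower. It was CXCL8, a neutrophil-attracting chemokine, at 2.55 ± 0.22 in Ni-E (edgeR, adjusted p = 0.0113) and 1.70 ± 0.21 in Ni-W cells (adjusted p = 0.0466). With a library left out its call was lost in 4 of 6 fits in Ni-E (2.54 to 2.58), all but those without a Ni-W library, and in 5 of 6 in Ni-W (1.47 to 1.92), all but that without Ni-W replicate 2, and limma called it in neither. With the replicate block 5 and 6 of the 24 were called higher. As a check of the nickel treatment, 13 hypoxia-inducible factor targets and metallothioneins were tested, since nickel ions are known to stabilize that factor. In Ni-E cells 4 of the 13 were called higher, MT2A, ADM, BNIP3 and EGLN3, and 13 of 13 values were above 0. MT2A, a metal-binding protein, had a log2 fold change of 3.33 ± 0.38 (edgeR, adjusted p = 0.0218) in Ni-E and, as the 1 gene of this list called in Ni-W cells, 3.78 ± 0.38 (adjusted p = 0.0252). Its call was lost without either UT or either Ni-E library in both comparisons, and in Ni-W cells also without Ni-W replicate 2, with values of 3.05 to 3.64 in Ni-E and 3.54 to 4.10 in Ni-W cells over the 6 fits. With the replicate block 11 and 7 of the 13 were called higher.

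Other apolipoproteins, their transporters and partners had 11 of 24 genes tested and 0 called by edgeR in either comparison against UT. At an unadjusted p below 0.05 there were 3 and 1, DESeq2 called 1 and 1 and limma 1 and 1, and with the replicate block 7 (3 higher, 4 lower) and 1 were called. APOD, a lipocalin that carries small lipids, was at 16.57 and 23.64 TPM in UT, 5.23 and 5.02 TPM in Ni-E and 2.24 and 3.46 TPM in Ni-W cells, and its log2 fold changes of -2.02 ± 0.43 and -2.82 ± 0.45 did not pass the test (edgeR, adjusted p = 0.0971 and 0.0773) except with the replicate block (-2.01 and -2.82). It was singled out after its values were seen. The intracellular partners of APOL1 and membrane trafficking genes had 0 of 19 called by edgeR with or without the block, DESeq2 or limma, with 2 and 1 at an unadjusted p below 0.05 in edgeR and medians of -0.02 and 0.05.

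The APOL genes were also set beside their neighbours on chromosome 22. Of 15 tested genes around the family, 0 were called higher and 1 lower in Ni-E against UT, and 0 were called in Ni-W against UT by edgeR, DESeq2 or limma (2 at an unadjusted p below 0.05 in edgeR), with 3 and 2 called lower under the replicate block and median log2 fold changes of -0.04 and -0.03. The gene called was PVALB, the calcium-binding parvalbumin, at 16.82 and 18.92 TPM in UT and 3.05 and 3.43 TPM in Ni-E cells. Its log2 fold change was -2.48 ± 0.39 in Ni-E (edgeR, adjusted p = 0.0448) and -1.68 ± 0.37 in Ni-W cells (adjusted p = 0.165), where it was called with the replicate block (-1.69). Leaving out either library of UT or of Ni-E ended that call, with values between -2.68 and -2.23. MYH9, the non-muscle myosin gene next to APOL1, was at 0.18 ± 0.17 and 0.23 ± 0.17, and RBFOX2, the splicing regulator between APOL6 and the cluster, at 0.23 ± 0.23 and 0.14 ± 0.23. MB, the listed neighbour nearest to APOL6, was lower, at -0.86 ± 0.41 and -1.05 ± 0.42. NCF4 was at -1.81 ± 0.51 and -0.22 ± 0.46. Neither was called by edgeR without the block. Of the 15 values 7 and 6 were above 0. These neighbours were named for their position or their values.

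**Figure D4:**
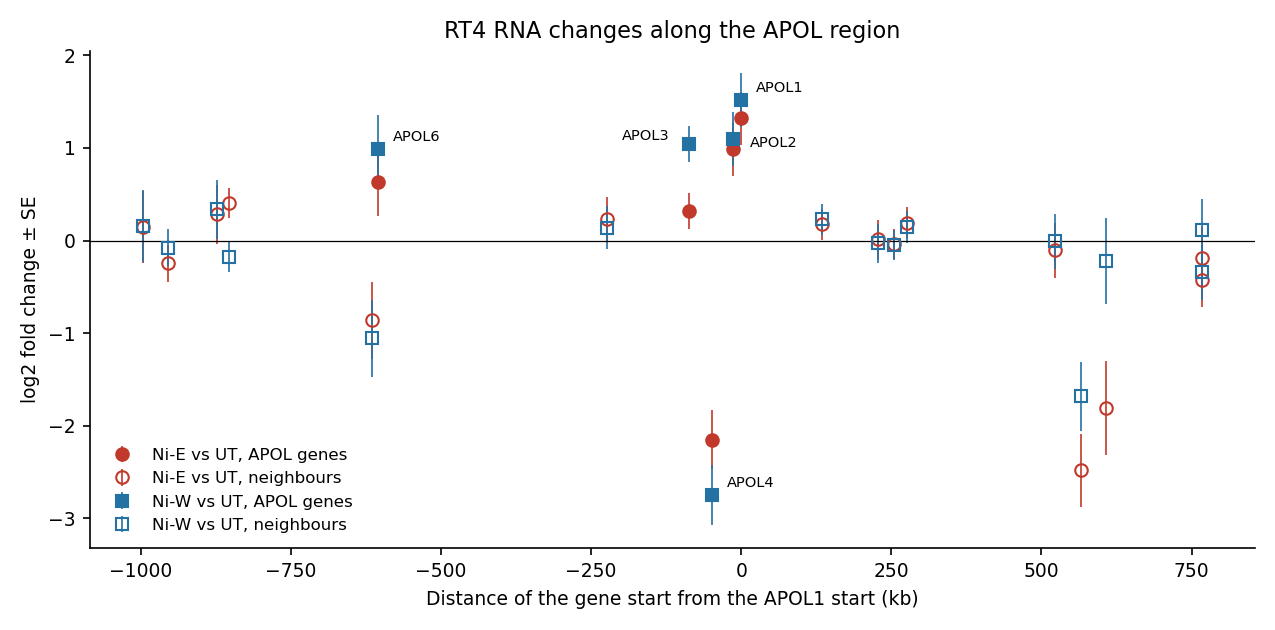
Log2 fold change with its standard error against UT for the 5 APOL genes (filled) and 15 neighbouring genes (open) in RT4 cells, by distance in kb of the gene start from the APOL1 start. The members of the cluster within 86.9 kb of APOL1 lie at 0.32 to 1.51, except APOL4 at -2.15 and -2.75, while the median neighbour lies at -0.04 and -0.03.

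In BEAS-2B cells the promoters of the 5 genes fell into 2 levels of H3K4me3. The values are RPKM (reads scaled to window length and library depth) in a window of 2 kb on each side of the start, and reads were recovered from their steps (28385725 for UT, 37493931 for Ni-E, 29933530 for Ni-W). Reads carry no molecular identifiers and there is 1 library per condition, so the 95% Wilson intervals cover counting error only and no difference here has a replicate check or a p-value. Of 6 epithelial marker promoters, 4 were above the library median in each library, with KRT8 at 7.33 and KRT18 at 7.26 RPKM in UT cells. CDH1 at 1.02 and KRT19 at 0.43 RPKM in UT were below it. Of 6 leukocyte marker promoters 1, CD14 at 2.06 RPKM in UT, was above the library median in each library. CD68 was at 0.99 and PTPRC at 0 in UT cells. Of 6 fibroblast marker promoters 2, COL1A1 at 8.74 and PDGFRB at 6.98 RPKM in UT, were above the library median as well.

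APOL2, APOL6 and APOL1 carried the mark. APOL2 was at 8.53 RPKM in UT (969 reads, interval 8.01 to 9.09), 8.0 in Ni-E (7.55 to 8.46) and 4.25 in Ni-W cells (3.90 to 4.64). APOL6 was at 7.72 RPKM in UT (876 reads, interval 7.22 to 8.24), 5.78 in Ni-E (5.41 to 6.18) and 3.27 in Ni-W cells (2.96 to 3.61). APOL1 was at 4.98 RPKM in UT (565 reads, interval 4.58 to 5.40), 4.67 in Ni-E (4.33 to 5.03) and 2.4 in Ni-W cells (2.14 to 2.69). All 3 were above the library medians, which were 1.57, 1.39 and 1.12 RPKM, and for all 3 the Ni-W interval lay below both others. These intervals are unscaled, and the share of all promoters with such intervals was not counted. Without median scaling, 10549 of 15740 promoters with at least 0.5 RPKM were 1.5-fold or more lower in Ni-W than in UT. Another 733 were 1.5-fold or more higher.

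APOL4 and APOL3 had little of it in their listed windows. APOL4 was at 0.167 RPKM in UT (19 reads, interval 0.107 to 0.261), 0.253 in Ni-E (0.185 to 0.348 from 38 reads) and 0.117 in Ni-W cells (0.0697 to 0.196 from 14 reads). APOL3 was at 0.282 RPKM in UT (32 reads, interval 0.2 to 0.398), 0.293 in Ni-E (0.219 to 0.394 from 44 reads) and 0.209 in Ni-W cells (0.141 to 0.308 from 25 reads). Of all promoters, 13.7% were below APOL4 and 30.9% below APOL3 in UT cells, against 86.1% below APOL2. The order of the 3 marked promoters, APOL2, APOL6 and APOL1, held in all 3 libraries. In RT4 RNA the order was APOL1, APOL2 and APOL6. The cell lines differ, and RNA of BEAS-2B cells was not analysed here.

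**Figure D5:**
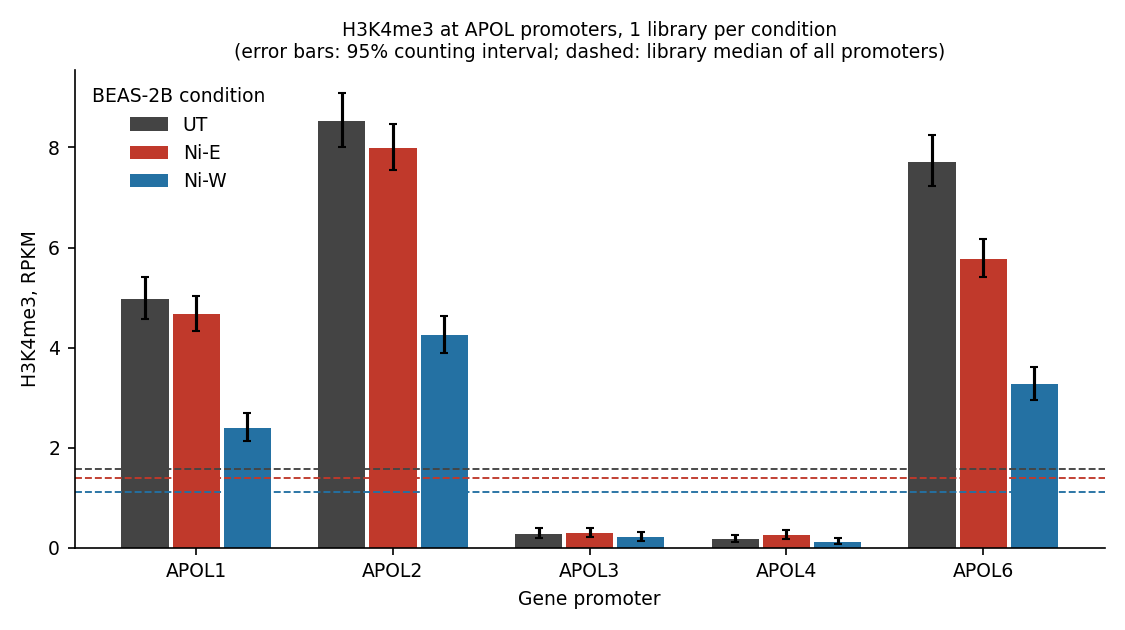
H3K4me3 in RPKM at the promoters of the 5 APOL genes in BEAS-2B cells, with 1 library for each condition. Error bars are 95% counting intervals and dashed lines are the library medians of all promoters. APOL1, APOL2 and APOL6 stand above the medians and are lowest in Ni-W, and APOL3 and APOL4 stay below 0.3 RPKM.

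The chromatin dynamic score follows the study. It is the square root of the RPKM over the library median, with the UT value subtracted from the treated one, so that a score above 0 means a relative gain. Its 95% counting range comes from the reads. In Ni-E against UT the score of APOL6 was -0.177 (range -0.277 to -0.0765), and 0.90% of all promoters had a lower one. The score of APOL4 was 0.101 (range 0.0007 to 0.201), whose range barely cleared 0 on 19 and 38 reads, and 71.3% of all promoters had a lower score. It was 0.081 without median scaling and 0.0649 with quantile normalization. The scores of APOL1 (0.0529), APOL2 (0.0679) and APOL3 (0.0355) lay within their ranges, and those of APOL1 and APOL2 turned to -0.0604 and -0.0805 without the median scaling.

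In Ni-W against UT the scores were -0.510 for APOL6, -0.384 for APOL2 and -0.318 for APOL1, all outside their counting ranges, and 0.0081 for APOL3 and -0.0030 for APOL4, within theirs. The signs of the first 3 were the same without median scaling and with quantile normalization, which brought them to -0.317, -0.181 and -0.148. After median scaling, promoters with a high mark were lower in the Ni-W library in general. Promoters were not grouped by level under the other scalings. Among those with a log2(RPKM + 1) of 3 to 4 in Ni-E, a group that APOL2 belongs to, the median score was -0.284 with quartiles of -0.414 and -0.111, and among those of 2 to 3, with APOL1 and APOL6, it was -0.203 with quartiles of -0.322 and -0.0427. APOL6 therefore lay below the lower quartile of promoters of its level, APOL2 within the quartiles and APOL1 just inside the lower one. Of all promoters, 2.69% had a lower score than APOL6, 9.35% than APOL2 and 15.4% than APOL1.

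Among promoters with at least 0.5 RPKM in 1 of the libraries compared, which keeps APOL1, APOL2 and APOL6, 0 of 3 members were 1.5-fold higher or lower in Ni-E against UT after median scaling, beside 2.63% of all such promoters higher and 0.885% lower. Of the promoters past this fold 74.9% were higher with median scaling, 38.1% without it and 51.6% with quantile normalization. In Ni-W against UT 1 of 3, APOL6, was at least 1.5-fold lower and 0 were higher, beside 17.8% of promoters lower and 8.43% higher. The log2 ratios were -0.75 for APOL6, -0.57 for APOL1 and -0.52 for APOL2, where the median promoter was at -0.29. Here 32.2% of those past the fold were higher with median scaling, 6.5% without it and 57.9% with quantile normalization. In Ni-W against Ni-E 2 of 3, APOL1 (-0.65) and APOL2 (-0.60), were at least 1.5-fold lower and APOL6 was at -0.51, beside 29.1% of promoters lower and 7.75% higher. The median promoter was at -0.39 there, and 21.0% of those past the fold were higher with median scaling, 8.0% without it and 55.4% with quantile normalization.

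Most promoters around the APOL genes had lower scores in Ni-W cells too. Of 19 listed neighbours 13 had a Ni-W against UT score below the counting range and 1 above it, with a median of -0.304 over the 14 that reached 0.5 RPKM. TST and MPST, whose windows overlap, are counted separately in this, both at a score of -0.415. Of all promoters 41.2% had a score above 0 in this comparison, and the share below the counting range was not counted. By level in Ni-E, the median score of all promoters was 0.041 at a log2(RPKM + 1) of 0 to 1 and -0.078 at 1 to 2. It was -0.203 at 2 to 3 and -0.284 at 3 to 4. MYH9 was at 14.96 RPKM in UT, 13.44 in Ni-E and 6.50 in Ni-W cells. RBFOX2 was at 8.88, 8.09 and 5.04 RPKM in the same order.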

How the data were processed

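RNA-Seq of 6 RT4 libraries (UT, Ni-E and Ni-W, 2 each) and H3K4me3 ChIP-Seq of 3 BEAS-2B libraries were used. Input libraries were not used here. Per gene, estimated counts from RSEM, TPM and FPKM were deposited by the authors for RNA-Seq. STAR and hg19 are given in the study's methods, while the submitters' processing notes name a GRCh38 build, so no coordinates were taken from the RNA data. Promoter RPKM values were deposited for ChIP-Seq, from BWA alignments (hg38) in which the authors had collapsed redundant reads.

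The estimated counts were rounded and tested with edgeR 4.0.16 (quasi-likelihood, TMM, filterByExpr, 1 model of 3 groups, no block). The titles mark 1 library of each condition with a suffix and name no batch. The differences between replicate 1 and 2 correlated at 0.66, 0.76 and 0.69 over 14502 genes for the 3 pairs of conditions, so values with the replicate number as a block are given where they change a call. Deposited TPM gave levels between genes, and deposited FPKM was read but not used. Fits on simulated counts of 14343 genes recovered 75 of 100 genes changed by 2 on the log2 scale in Ni-E against UT and 3 of 100 changed by 1, with 1 unchanged gene called. Reads behind RPKM were recovered from the step of each library (100.0% of values whole within rounding), and 3 reads were taken as the floor.

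Members and gene lists were chosen with earlier results of these data known. Named genes are the 5 members, the 3 called genes with the highest and the 3 with the lowest fold change of each list and comparison, and the 3 genes nearest to a called member, unless said otherwise. Alternatives were RLE size factors, DESeq2 1.42.0, other filters, limma 3.58.1 on log2(TPM + 1) and log2(TPM + 0.1), the compared groups alone, a replicate block and each library left out, and for H3K4me3 no median scaling, quantile normalization and at least 1 RPKM. The software was matplotlib 3.10.9, scipy 1.17.1, pandas 2.3.3 and numpy 2.4.6 under Python 3.11.15, with R 4.3.3 for the models. APOL promoter and protein sequences were not analysed here. The values of 1 signalling gene are not reported here.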

Additional observations from a re-analysis of the deposited data

How the results depend on the processing

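The sign of each member's log2 fold change against UT held in all 14 alternatives, including RLE size factors, which changed no member's call. APOL4 lost its call with limma on log2(TPM + 1), at -1.54 in Ni-E and -1.84 in Ni-W against UT, with limma on log2(TPM + 0.1), at -2.05 and -2.55, and, in Ni-W against UT, with only the 2 groups compared, at -2.74. APOL1 gained a call in Ni-E and Ni-W against UT without the filter (1.32 and 1.51), with DESeq2 (1.31 and 1.51), with limma on log2(TPM + 1) (1.34 and 1.56) and with limma on log2(TPM + 0.1) (1.34 and 1.56). APOL2 (1.09) and APOL3 (1.04) gained one with DESeq2 in Ni-W against UT.

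With a replicate block more genes were called, 1833 in Ni-E against UT, 1243 in Ni-W against UT and 655 in Ni-W against Ni-E. Under the block APOL1 (1.33 and 1.51), APOL2 (1.01 and 1.09) and APOL6 (0.62 and 0.94) were called in both comparisons against UT, and APOL3 was called in Ni-W against UT (1.04) and against Ni-E (0.72). The block changed no other call of a member.

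Genes called numbered 314, 87 and 0 in the 3 comparisons (Ni-E and Ni-W against UT, Ni-W against Ni-E). They became 734, 437 and 139 with DESeq2, 193 (Ni-W against UT) and 14 (Ni-W against Ni-E) without the filter, 209 and 54 against UT with at least 10 counts in every sample, 170 and 173 in Ni-E against UT with the 2 limma fits, 11 in Ni-W against Ni-E with limma on log2(TPM + 0.1), and 0 in Ni-W against UT with only the 2 groups compared. With a library left out they ranged from 0 to 320, from 0 to 38 and from 0 to 0, and APOL4 ranged from -2.53 to -1.83 in Ni-E and from -2.83 to -2.65 in Ni-W against UT.

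For H3K4me3, promoters past 1.5-fold numbered 545 in Ni-E against UT and 197 with at least 1 RPKM. Without median scaling they went from 4125 to 11282 in Ni-W against UT and from 5839 to 10384 in Ni-W against Ni-E, where quantile normalization gave 3082. Without median scaling the scores were -0.0604 for APOL1, -0.0805 for APOL2 and -0.320 for APOL6 in Ni-E against UT, -0.586, -0.738 and -0.833 in Ni-W against UT, and -0.525, -0.657 and -0.512 in Ni-W against Ni-E. With quantile normalization they were -0.148, -0.181 and -0.317 in Ni-W against UT and -0.142, -0.154 and -0.0527 in Ni-W against Ni-E. Among named genes and list counts, 870 values stayed on their side of the threshold or, for counts, within 1.5 times. A turn of sign between values that were not called was not counted as a change. Another 72 fell below the threshold, 26 passed it and 93 counts moved by over 1.5 times. The cause of these shifts was not tested. With 2 libraries a group, a change of 2-fold was rarely called in simulated data, and with 14 to 44 reads the APOL3 and APOL4 promoters cannot show small differences.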

Other observations

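The remaining member of the human chromosome 22 family, APOL5, and the distant relative APOLD1, an endothelial immediate early gene, were low in RT4 RNA. APOL5 had 1 to 6 estimated counts (0.05 to 0.48 TPM) in the RT4 libraries and 0 reads at its promoter in all 3 BEAS-2B libraries, which at a floor of 3 reads allows up to 0.0264 RPKM in UT, 0.0200 in Ni-E and 0.0251 in Ni-W cells. APOLD1 was at 0.32 and 0.28 TPM in UT, 0.62 and 0.48 TPM in Ni-E and 0.66 and 0.40 TPM in Ni-W RT4 cells, and its log2 fold change of 0.82 ± 0.34 in Ni-E against UT did not pass the test (edgeR, adjusted p = 0.439). Its promoter, by contrast, held more H3K4me3 in BEAS-2B cells than any of the 5 members, at 11.93, 10.14 and 8.62 RPKM in UT, Ni-E and washed-out cells. Its Ni-W against UT score was 0.0165, within the counting range, where APOL1, APOL2 and APOL6 were below theirs.

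The mean transcript length that RSEM assigned to APOL4 ran from 3310 to 3415 bases over the 6 libraries and that of APOL1 from 2802 to 2810 bases. APOL6, with a single transcript of 10065 bases, was the longest of the members, and its TPM was higher in replicate 1 than in replicate 2 in all 3 conditions, while that of APOL1 and APOL2 was lower in replicate 1 in all 3.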
